A study of Mus musculus with 4 samples.

Results

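Transcripts of 8 amino acid transporter genes were followed across kidney cortex nuclei of 4 mouse genotypes. The genes are Slc6a19, Slc7a7, Slc7a8, Slc7a9, Slc3a1, Slc7a12, Slc7a13 and Slc1a1, picked by name from the 21456 genes of the deposited cluster-average table. The animals were C57BL/6J mice. The WT library carried neither mutation, the Sco2KO/KI library carried a knockout and a knock-in allele of Sco2, a copper chaperone for assembly of mitochondrial cytochrome c oxidase, and the db/db library carried the leptin receptor mutation that causes obesity and diabetes. The Sco2KO/KI;db/db library carried both and is called the double mutant here. Each genotype had 1 library, so no difference between genotypes has a replicate check and no test was made. The labels used here name no age or sex and do not say whether a library pooled animals. Because whole-body alleles were compared in cortex pieces, the genotype difference is not confined to the proximal tubule.

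The proximal tubule recovers nearly all filtered amino acids: a transporter in the apical (brush-border) membrane takes them up from the tubular fluid, and an exchanger in the basolateral membrane passes them on towards the blood. Several of the proteins work only as pairs of a light chain, which transports, and a partner that brings it to the membrane. The segments of the tubule, from the early convoluted S1 and S2 to the straight S3, use different sets of these proteins, and in the mouse the S3 set also differs between males and females.

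The 8 proteins fall into 3 groups by membrane and partner. At the apical membrane, Slc6a19 (B0AT1) takes up neutral amino acids with sodium and needs collectrin, listed here under its older symbol Tmem27, for its place in the kidney brush border; loss of its human counterpart causes Hartnup disorder. Slc7a9 (b0,+AT) takes up cystine and cationic amino acids as the light chain of Slc3a1 (rBAT), and loss of either human counterpart causes cystinuria. Slc7a13 (AGT1) is another light chain of Slc3a1, for cystine, aspartate and glutamate, found in S3. Slc1a1 (EAAC1) is an apical glutamate and aspartate carrier. At the basolateral membrane, Slc7a7 (y+LAT1) and Slc7a8 (LAT2) are light chains of Slc3a2 (4F2hc). Slc7a12 (Asc-2) is a light chain of the same family whose partner protein is not established. In mouse kidney, Slc7a13 is known to be higher in males and Slc7a12 higher in females.

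The values are mean UMIs per nucleus after scaling each nucleus to 10000 UMIs, averaged over the nuclei of 1 cluster in 1 library, and all levels below are in that unit. They measure nuclear RNA with unspliced transcripts included, not protein. The numbers of nuclei, recovered from the values themselves, were 5157 for WT, 1181 for Sco2KO/KI, 4578 for db/db and 5279 for the double mutant. Clusters 0, 1, 2, 3 and 7 carried proximal tubule markers and form the proximal tubule-like class, with 2447, 706, 2003 and 3015 nuclei in the same order. Clusters 1 and 2 led with convoluted segment markers and clusters 3 and 7 with S3 markers. In cluster 3 only 3 of the 5 S3 markers were over 2-fold above the mean of the other clusters, against 5 in cluster 7. The S3 marker Cyp7b1 was 0.295 in cluster 3 and 26.6 in cluster 7 of WT. The convoluted marker Slc34a1 was 47.6 and 12.5 there, so cluster 3 is not plainly S3. The class is uneven in depth: the median UMI total per nucleus of its clusters lay between 2356 and 3701 in WT, 4191 and 6589.5 in Sco2KO/KI, 2620 and 3718 for db/db, and 2337 and 4138.5 for the double mutant. Cluster 7 held 441, 116, 242 and 30 nuclei, so its values in the double mutant are the least precise.

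Inside the proximal tubule-like class the 8 transcripts split into a convoluted set and a straight set, and the split held in all 4 libraries. The basolateral pair and the apical Slc6a19 were highest in cluster 1 and far lower in clusters 3 and 7, while Slc3a1, Slc7a13, Slc7a12 and Slc1a1 were highest in cluster 7. These clusters were formed from the same nuclei, so their differences are a description and not a test.

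In the convoluted set, Slc7a7 lies on chromosome 14 at 54369442 to 54417780 of mm10 on the minus strand, where Oxa1l overlaps it on the other strand. Its level in cluster 1 was 12.6 in WT and 13.5 in Sco2KO/KI, against 14.3 for db/db and 11.03 for the double mutant. In cluster 7 it was 1.12, 0.761, 0.734 and 1.19, a fold between clusters of 11.3, 17.7, 19.5 and 9.25. The 4 libraries were close to each other in cluster 1 and in the order of the clusters, which ran from 1 over 2 to 0 in each.

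Slc7a8, which lies near Slc7a7 on chromosome 14 at 54722209 to 54781946, had the same profile. Its level in cluster 1 was 9.80 in WT and 9.29 in Sco2KO/KI, against 10.2 for db/db and 9.36 for the double mutant. In cluster 7 it was 0.574, 0.303, 0.802 and 1.08. Both libraries with the db/db mutation were above both libraries without it in clusters 0, 2, 3 and 7. In cluster 0 the levels were 1.30 and 0.964 without the mutation against 2.45 and 2.43 with it. Slc3a2, the shared partner chain, was also highest in cluster 1 of every library, at 1.12, 1.13, 0.8003 and 0.8098, and in cluster 7 it was 0.416, 0.387, 0.245 and 0.410.

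Slc6a19, on chromosome 13 at 73679745 to 73704865 on the minus strand, was highest in cluster 1 and close behind in cluster 2. In cluster 1 it was 4.50 in WT and 4.25 in Sco2KO/KI, against 1.87 for db/db and 3.64 for the double mutant. In cluster 2 it was 3.96, 2.76, 1.85 and 3.15, and in cluster 7 it was 0.459, 0.198, 0.139 and 0.893. The db/db library was the lowest of the 4 in clusters 1, 2 and 7, and the double mutant was the highest in clusters 0, 3 and 7. An antisense gene, Slc6a19os, overlaps it but averaged at most 0.00849 over the class.

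Slc7a9, on chromosome 7 at 35448796 to 35466036, declined from cluster 1 to cluster 7 with a shallower slope than Slc6a19, Slc7a7 and Slc7a8. In cluster 1 it was 1.44 in WT and 2.39 in Sco2KO/KI, against 0.851 for db/db and 2.05 for the double mutant, and in cluster 7 it was 0.370, 0.620, 0.655 and 1.16. Both Sco2KO/KI libraries were above both others in clusters 0, 1, 2 and 3. In db/db the slope was nearly flat, with a highest value of 0.917 in cluster 2 and a lowest of 0.546 in cluster 3.

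In the straight set, Slc3a1, on chromosome 17 at 85028376 to 85064236, had the same order of clusters in all 4 libraries, from 7 over 3, 0 and 2 to 1. In cluster 7 it was 5.84 in WT and 5.80 in Sco2KO/KI, against 5.21 for db/db and 4.77 for the double mutant. In cluster 1 it was 1.91, 1.78, 1.65 and 1.58. The fold of cluster 7 over cluster 1 was 3.06, 3.27, 3.15 and 3.02. Slc3a1 thus ran against its light chain Slc7a9 across the clusters and with its light chain Slc7a13. Over the 20 proximal tubule-like columns the Pearson correlation of log2 levels was -0.64 between Slc3a1 and Slc7a9 and 0.74 between Slc3a1 and Slc7a13. These columns share libraries and clusters.

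Slc1a1, on chromosome 19 at 28835049 to 28913960, differed by at most 2.04-fold between the highest and the lowest of the 5 clusters in any library. In cluster 7 it was 5.24 in WT and 5.88 in Sco2KO/KI, against 5.50 for db/db and 4.36 for the double mutant. In cluster 1 it was 3.18, 3.59, 2.70 and 3.32, and the fold of cluster 7 over cluster 1 was 1.65, 1.64, 2.04 and 1.31. In the double mutant clusters 3 and 7 were nearly level, at 4.24 and 4.36.

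**Figure D1:**
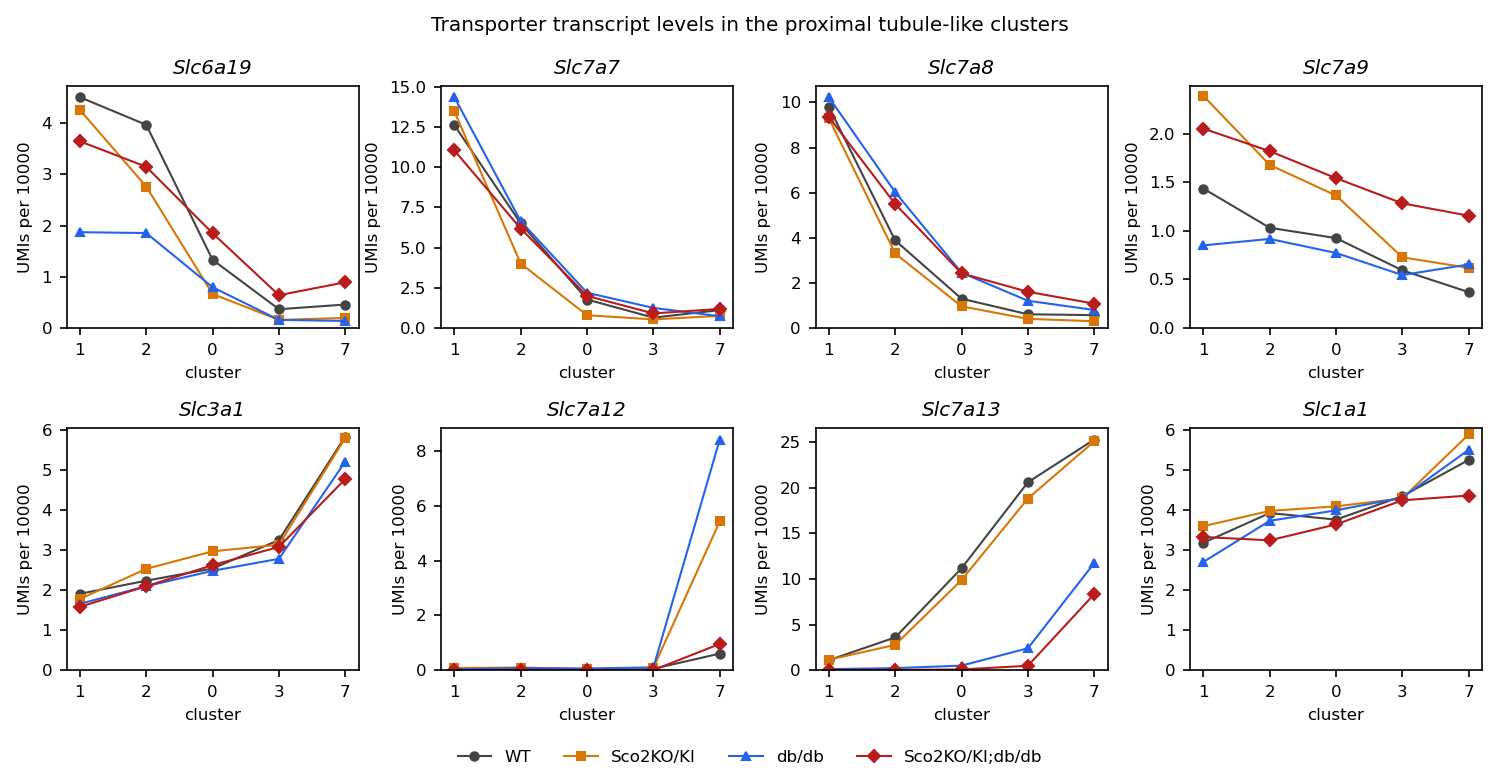
Level of each transporter transcript, in mean UMIs per nucleus scaled to 10000, in the 5 proximal tubule-like clusters. They are ordered from those led by convoluted segment markers (1, 2) to those led by S3 markers (3, 7). In cluster 3 only 3 of the 5 S3 markers were over 2-fold above the mean of the other clusters. Each line joins the clusters of 1 library; the upper row declines to the right and the lower row climbs, and Slc7a13 is apart in the db/db and double mutant libraries.

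Slc7a13, on chromosome 4 at 19818725 to 19842218, differed both along the tubule and between genotypes. In cluster 7 it was 25.3 in WT and 25.1 in Sco2KO/KI, against 11.7 for db/db and 8.33 for the double mutant. In cluster 3 it was 20.6, 18.8, 2.40 and 0.473. In cluster 0 it was 11.2, 9.88, 0.489 and 0.0673, and in clusters 1 and 2 of the double mutant it was 0.0102 and 0.0167, about 2.67 and 3.56 UMIs in all.

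The db/db levels of Slc7a13 were thus below WT by a fold that depended on the cluster. The fold was 22.9 in cluster 0, 8.60 in cluster 3 and 2.15 in cluster 7. The double mutant was below db/db by 7.26-fold in cluster 0, 5.07-fold in cluster 3 and 1.41-fold in cluster 7. Cluster 7 exceeded cluster 3 by 1.23-fold in WT and 1.33-fold in Sco2KO/KI, against 4.90-fold for db/db and 17.6-fold for the double mutant, so the transcript was far more restricted to cluster 7 in both libraries with the db/db mutation. The order of the clusters was the same in every library.

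Slc7a12, on chromosome 3 at 14480697 to 14505830, was measured almost entirely in cluster 7 and did not follow Slc7a13 across genotypes. In cluster 7 it was 0.602 in WT and 5.43 in Sco2KO/KI, against 8.42 for db/db and 0.957 for the double mutant, which correspond to about 98.3, 415, 758 and 11.9 UMIs. Each mutation on its own thus went with a higher level than WT, by 9.02-fold for Sco2KO/KI and 13.99-fold for db/db, and the double mutant was only 1.59-fold above WT. In the other 4 proximal tubule-like clusters no library exceeded 0.0969, and the double mutant was listed at 0 in clusters 0, 1 and 3.

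Other S3 transcripts of cluster 7 moved between the libraries too. Among the 5 S3 markers, Cyp7b1, a steroid and oxysterol hydroxylase, was 26.6 in WT and 32.6 in Sco2KO/KI, against 10.0 for db/db and 2.71 for the double mutant. Atp11a, a phospholipid flippase, was 24.4, 24.4, 8.13 and 8.87. Slc5a8, a monocarboxylate carrier, was 8.69, 8.40, 6.24 and 6.24, Slc5a10 was 1.90, 3.34, 4.02 and 2.41, and Slc22a19 was 1.68, 4.90, 1.02 and 0. Convoluted markers were highest in cluster 7 of the double mutant, as with Slc34a1, the phosphate carrier, at 12.5, 11.9, 5.97 and 26.4. The part of this in the Slc7a13 and Slc7a12 values was not tested.

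Kap, a kidney transcript known to depend on androgen, averaged 43.3 in WT and 40.8 in Sco2KO/KI, against 6.58 for db/db and 9.43 for the double mutant over the class. Slc7a13 averaged 12.4, 11.5, 2.99 and 1.78, so both transcripts were high in the same pair of libraries. Y-linked Uty averaged between 2.89 and 3.50 in all 4 libraries and Xist at most 0.0124, so all 4 libraries carried a Y-linked transcript and next to no Xist. Hormone levels were not measured and their part was not tested.

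**Figure D2:**
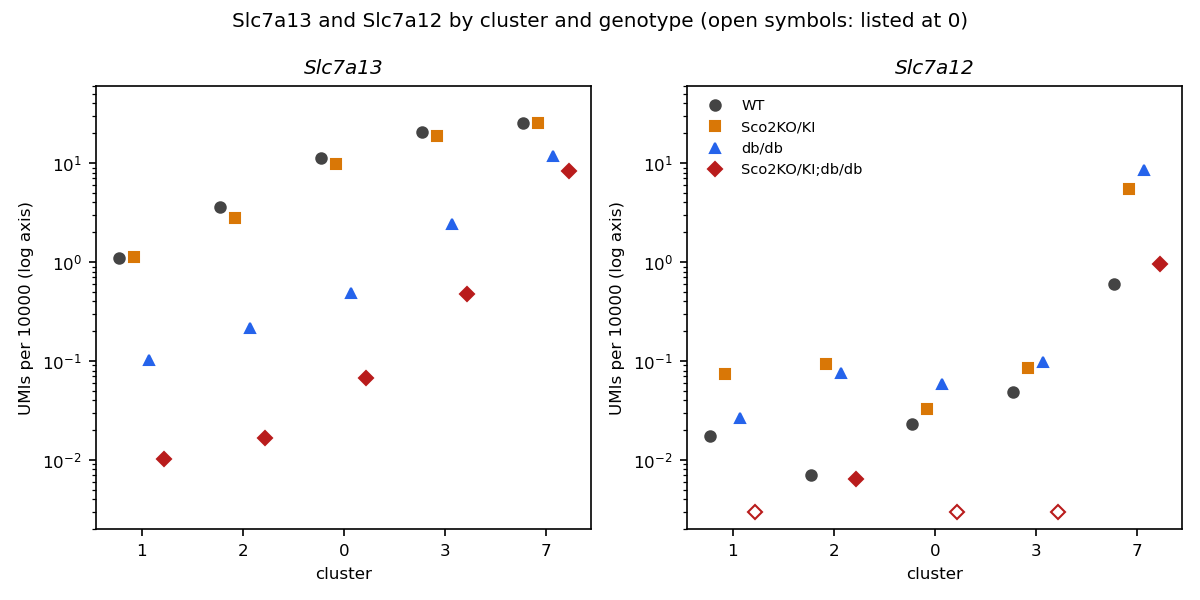
Levels of Slc7a13 and Slc7a12 on a log axis, in mean UMIs per nucleus scaled to 10000, by proximal tubule-like cluster, with 1 symbol per library and open symbols at the bottom for values listed at 0. Slc7a13 separates db/db and the double mutant from the other libraries in every cluster, least in cluster 7, while Slc7a12 is above 0.0969 only in cluster 7.

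Genotypes were compared by the log2 ratio of levels after adding 0.1, taken in each of the 5 clusters and averaged without weights. A gene was called higher or lower when this mean was at least 1 or at most -1, a 2-fold difference, with the same sign in all 5 clusters and a class mean of at least 0.5 in 1 of the libraries. Added 0.1 makes the ratios of low genes smaller than their folds. Slc7a12 averaged 0.140 in WT and 0.193 in the double mutant, both under the floor, and 1.14 in Sco2KO/KI and 1.74 in db/db. Each of its calls over the class therefore passed the floor only through the library where it was high. The comparisons share libraries, so the values that follow stand side by side and are not independent.

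For the Sco2 alleles on the lean background, Sco2KO/KI was set against WT. None of the 8 transporters was called, against a background of 0.863% of 3939 genes called higher and 1.32% called lower. The ratios were -0.65 for Slc6a19, -0.48 for Slc7a7, -0.39 for Slc7a8, 0.55 for Slc7a9, 0.05 for Slc3a1, -0.12 for Slc7a13 and 0.09 for Slc1a1. Slc7a9 was higher and Slc6a19 lower in all 5 clusters, each by less than 2-fold on average. The ratio of Slc7a12 was 0.97, and that mean combined a ratio of 2.98 in cluster 7 with ratios of at most 0.85 in the other clusters.

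For the db/db mutation alone, db/db was set against WT, and 3 of the 8 transporters were called. Slc7a13 was lower by a ratio of -2.90, and the clusters ran from -4.26 in cluster 0 to -1.10 in cluster 7. Slc6a19 was lower by -1.01, just past the limit, from a class mean of 2.12 to 0.964. Slc7a12 was higher by 1.04, a mean that rests on 3.60 in cluster 7. Of 10 alternative settings, 5 ended the Slc6a19 call, 4 the Slc7a12 call and 0 the Slc7a13 call. The background was 1.73% of 4045 genes called higher and 3.24% called lower. Slc7a8 was 0.57, Slc7a7 0.16, Slc7a9 -0.10, Slc3a1 -0.14 and Slc1a1 -0.03, none of them called. The S3 light chain Slc7a13 was thus lower while its partner Slc3a1 averaged 3.15 in WT and 2.84 in db/db.

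Collectrin, under Tmem27, was lower with Slc6a19 in db/db. It averaged 3.51 in WT and 2.71 in Sco2KO/KI, against 1.59 for db/db and 3.23 for the double mutant. Slc6a19 averaged 2.12, 1.61, 0.964 and 2.03, the same order of the libraries. The ratio of Tmem27 in db/db against WT was -1.09, past the 2-fold limit. This difference was not confined to the proximal tubule-like class. In db/db and WT, Tmem27 was 0.787 against 2.13 in the thick ascending limb-like cluster. It was 0.991 against 2.08 in the distal convoluted tubule-like cluster and 1.21 against 2.32 in the endothelium-like cluster. The convoluted markers Slc5a12, Slc5a2 and Slc34a1 were also lower in db/db than in WT in all 5 proximal tubule-like clusters. In cluster 1, Slc5a12 was 39.5 in WT and 21.3 in db/db, and Slc5a2 was 8.07 and 5.34. Slc4a4, another convoluted marker, was higher in all 5, at 37.5 and 52.9 in cluster 1, and Slc22a6 and Slc22a8 went both ways. The part of these markers in the Slc6a19 value was not tested.

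For the Sco2 alleles on the diabetic background, the double mutant was set against db/db. Slc6a19 was called higher, at 1.27, and its level was higher in all 5 clusters, from 0.797 to 1.85 in cluster 0 and from 0.139 to 0.893 in cluster 7. Slc7a13 was called lower at -1.35 and Slc7a12 lower at -1.14. A pseudocount of 0.5 ended all 3 calls, and leaving out cluster 7 or weighting by nuclei also ended that of Slc7a12. Slc7a9 was 0.97, higher in all 5 clusters but under the limit, with class means of 0.748 in db/db and 1.57 for the double mutant. The background was 2.64% of 4057 genes called higher and 1.11% called lower. Slc7a7 at -0.08, Slc7a8 at 0.10, Slc3a1 at 0.01 and Slc1a1 at -0.08 lay near 0.

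For the db/db mutation on the Sco2 mutant background, the double mutant was set against Sco2KO/KI. Slc7a13 was lower by -4.13, from a class mean of 11.5 to 1.78. Slc7a8 was called higher at 1.06 and Slc7a12 lower at -1.07. Of 10 alternative settings, 5 ended the Slc7a8 call, weights by nuclei among them, and 3 ended the Slc7a12 call, leaving out cluster 7 among them. Slc6a19 was 0.91 and Slc7a7 0.56, neither called. The background was 2.32% of 4001 genes called higher and 2.1% called lower. Slc7a8 had class means of 2.85 in Sco2KO/KI and 3.99 in the double mutant, and its ratio was smallest in cluster 1, where the levels were 9.29 and 9.36.

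Against WT, the double mutant had 1 call among the 7 transporters above the floor of 0.5, Slc7a13 at -4.25. The background was 2.82% of 4072 genes called higher and 2.63% called lower. Slc6a19 was 0.26, a mean over clusters that went both ways, with -0.30 and -0.32 in clusters 1 and 2 but 0.45, 0.66 and 0.83 in clusters 0, 3 and 7. Slc7a9 was 0.87 and Slc7a8 was 0.67. Slc3a1 at -0.13 and Slc1a1 at -0.11 stayed near 0, as they did in every comparison made: their ratios ranged over the 5 comparisons from -0.18 to 0.05 for Slc3a1 and from -0.20 to 0.09 for Slc1a1.

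Cluster 7 was also read alone, since Slc7a12 was measured almost entirely there, with the same 2-fold limit and floor applied to that cluster. In Sco2KO/KI against WT, Slc7a12 was past the limit, at 2.98, and no other transporter was, where 1.51% of 4028 genes were higher and 2.78% lower. In db/db against WT, Slc7a12 was higher at 3.60 and Slc7a13 lower at -1.10, where 3.37% of 4154 genes were higher and 4.94% lower. In the double mutant against db/db, Slc6a19 was higher at 2.05 and Slc7a12 lower at -3.01, where 12.4% of 4551 genes were higher and 6.55% lower. Against Sco2KO/KI, Slc6a19 at 1.74 and Slc7a8 at 1.56 were higher and Slc7a12 at -2.39 and Slc7a13 at -1.58 lower, where 15.5% of 4495 genes were higher and 6.56% lower. Against WT, Slc7a9 was higher at 1.42 and Slc7a13 lower at -1.59, where 13% of 4591 genes were higher and 7.51% lower. Every comparison with the 30 nuclei of the double mutant thus had a high background in this cluster.

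**Figure D3:**
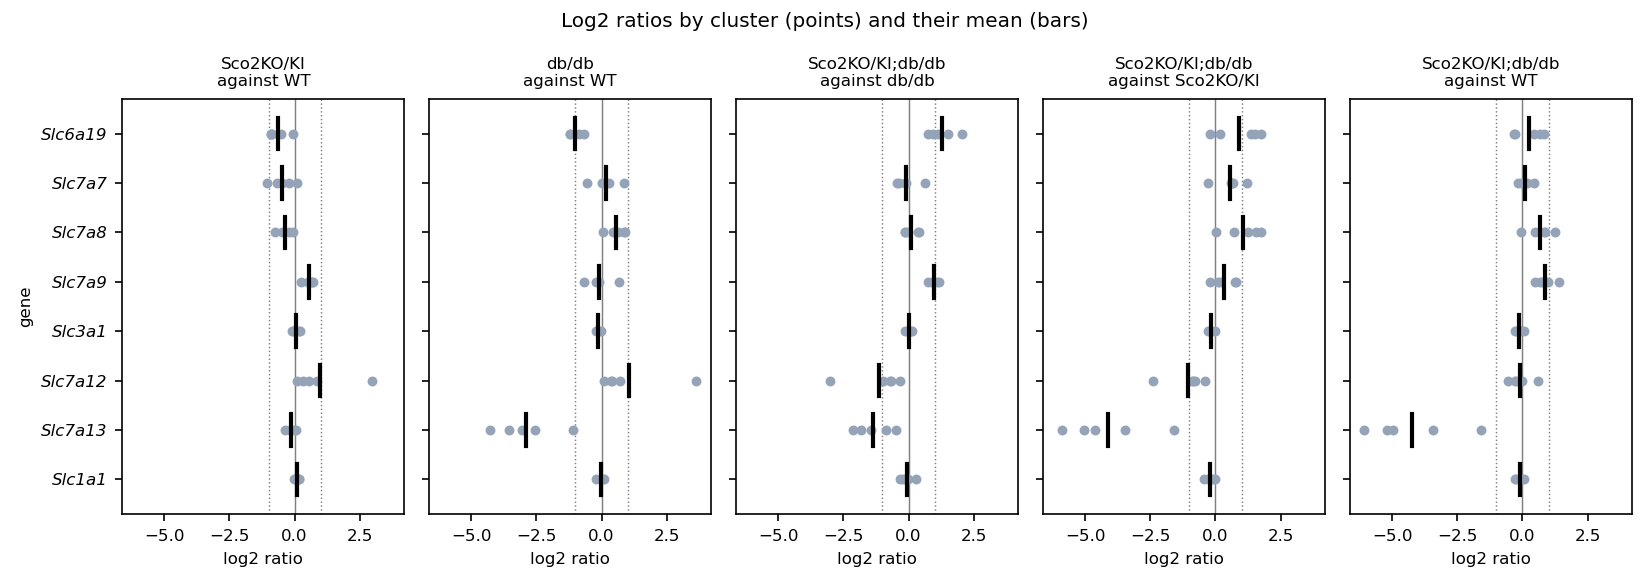
Log2 ratios of the 8 transporter transcripts in the 5 comparisons, on the log2(value + 0.1) scale. Points are the proximal tubule-like clusters, bars their unweighted mean and dotted lines the 2-fold limit; the bars of Slc3a1 and Slc1a1 lie between -0.20 and 0.09, with single clusters from -0.42 to 0.29, and the bar of Slc7a13 reaches -2.90, -4.13 and -4.25 where the db/db mutation is compared.

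The difference between the Sco2 ratio on the diabetic and on the lean background was also taken. For Slc6a19 the Sco2 ratio was -0.65 on the lean and 1.27 on the diabetic background, a difference of 1.92 with the same sign in all 5 clusters. For Slc7a12 it was 0.97 and -1.14, a difference of -2.11, which in cluster 7 alone was -5.99. For Slc7a13 it was -0.12 and -1.35, a difference of -1.22, which was -0.59 with a pseudocount of 0.5. The other 5 transporters had differences between -0.17 and 0.49. Among 4305 genes 4.41% had a difference of at least 1 and 1.84% of at most -1 in all 5 clusters. With 1 library per genotype this difference was not tested.

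As a list, the 8 transporters did not lean one way. Their median log2 ratio was -0.04 for Sco2KO/KI against WT and -0.07 for db/db against WT. It was -0.04 for the double mutant against db/db, 0.07 against Sco2KO/KI and 0.08 against WT over the 7 above the floor. The medians of all genes above the floor were -0.06, 0.07, -0.07, 0.06 and -0.0039.

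A list of 47 other amino acid and peptide transporters and partner genes was read beside them, and 45 were in the table. Of these, 17 or 18 were above the floor in each comparison, and at most 2 were called in each comparison. Over all genes above the floor, 0.863% to 2.82% were called higher and 1.11% to 3.24% lower, depending on the comparison. In Sco2KO/KI against WT only Slc15a2, an apical peptide carrier, was called, higher at 1.03. In db/db against WT Slc38a3, a basolateral glutamine carrier of the proximal tubule, was called higher at 2.17 and Tmem27 lower at -1.09. Slc38a3 was the largest of these ratios, and its level in cluster 7 was 0.869 in WT and 0.954 in Sco2KO/KI, against 2.99 for db/db and 1.87 for the double mutant. In cluster 0 it was 0.0214, 0.0996, 0.816 and 0.184.

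In the double mutant against db/db only Slc38a3 was called, lower at -1.43, again above the floor only through db/db. Against Sco2KO/KI only Slc16a10, a basolateral carrier of aromatic amino acids, was called, higher at 1.08. Its level in cluster 1 was 9.61 in WT and 7.38 in Sco2KO/KI, against 9.46 for db/db and 9.33 for the double mutant, and in cluster 3 it was 0.838, 0.588, 1.71 and 1.52. This profile, high in cluster 1 and raised outside it in both libraries with the db/db mutation, is the one described for Slc7a8. Against WT, Slc38a2, a sodium-coupled neutral amino acid carrier, was called lower at -1.04 and Slc6a15, a neutral amino acid carrier of the same family as Slc6a19, lower at -1.05. Slc38a2 reached the floor only through WT, at a class mean of 0.615 against 0.245 in the double mutant. Slc3a2 was called in none of the comparisons, with class means of 0.734, 0.688, 0.506 and 0.571.

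Outside the proximal tubule-like class, 11 clusters could be named from markers and 5 could not. Clusters 6, 10 and 14 stayed unnamed and carried 53.0%, 74.0% and 65.4% of the proximal tubule marker level. In droplet data, RNA from lysed tubule cells can be captured with any nucleus, so each transporter level outside the class was read as a percentage of its proximal level beside the same percentage for the 15 proximal tubule markers. Over the 35 columns of named clusters with at least 20 nuclei, the summed markers stood at 10.3% to 33.1% of their proximal level. Against that reference, Slc3a1, Slc7a7, Slc7a9 and Slc1a1 were above the highest marker in 0 of 35 columns, and Slc6a19 was above it in 2.

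Slc7a8 was the exception, above every one of the 15 markers in 11 of 35 columns. In the type A intercalated cell-like cluster, acid-secreting cells of the collecting duct, it was 2.33 in WT, 4.03 in db/db and 2.98 for the double mutant. These are 72.1%, 97.2% and 74.5% of its proximal level, where the highest marker stood at 63.8%, 60.3% and 41.2%. The Sco2KO/KI column of that cluster held 15 nuclei and was at 2.13. In the connecting tubule-like cluster Slc7a8 was 2.12 in WT, 1.67 in db/db and 1.4998 for the double mutant, again above every marker. The Sco2KO/KI column of the connecting tubule-like cluster, with 33 nuclei, was lower, at 1.31. In the thick ascending limb-like cluster it was above every marker at 1.44 for Sco2KO/KI, 1.94 for db/db and 1.55 for the double mutant, and at 0.981 in WT it was not. Tmem27 was above every marker in 31 of 35 columns, spread over unlike cell types. In WT it was 2.07 in the principal cell-like, 2.13 in the thick ascending limb-like, 2.32 in the endothelium-like and 1.62 in the podocyte-like cluster. Standing above every marker therefore does not by itself place a transcript in a cluster, and the source of these levels was not tested.

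Slc7a13 was below every marker in 17 of 35 columns and above every marker in 1, counts that became 10 and 3 when the proximal level was weighted by nuclei. In named clusters outside the class its median was 1.78 in WT and 1.66 in Sco2KO/KI, against 0.139 for db/db and 0.0476 for the double mutant, the same order as in the proximal tubule-like class. Slc7a12 was below every marker in 27 of 35 columns and above every marker in 1, counts that became 26 and 4 with that weighting. Its median outside the class was 0 in WT and the double mutant.

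**Figure D4:**
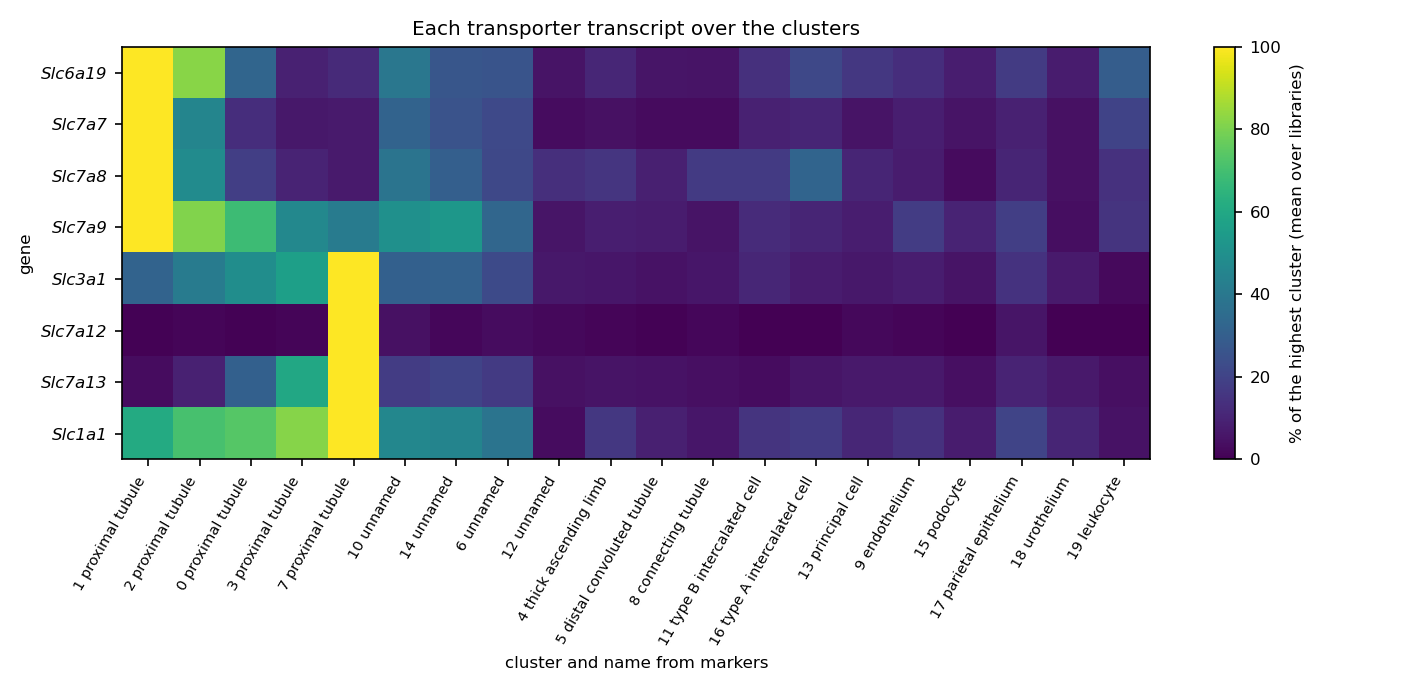
Each transporter transcript over the clusters, as a percentage of its highest cluster, from means over the libraries with at least 20 nuclei in that cluster. Slc6a19, Slc7a7, Slc7a8 and Slc7a9 peak in cluster 1 and Slc3a1, Slc7a12, Slc7a13 and Slc1a1 in cluster 7, and Slc7a8 has a further rise in the type A intercalated cell-like cluster.

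**Figure D5:**
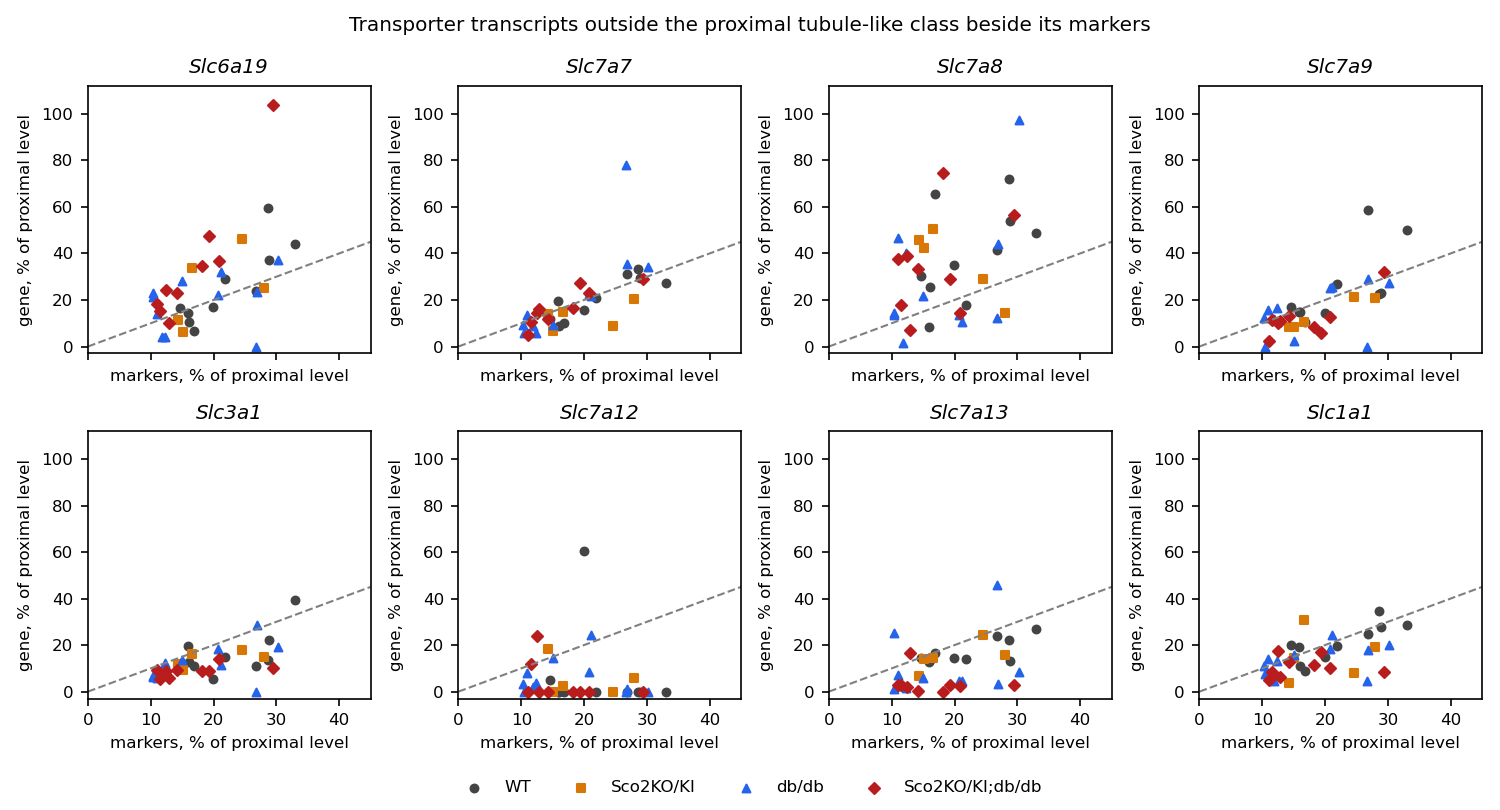
Level of each transporter transcript in the named clusters outside the proximal tubule-like class, as a percentage of its proximal level, against the same percentage for the summed 15 proximal tubule markers, with 1 symbol per column and a dashed line of equality. Slc7a8 lies above the line in many columns, up to 97.2%, and Slc7a13 and Slc7a12 lie mostly below it.

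The genes whose pattern over all 72 columns with at least 20 nuclei was most like each transporter were mainly other proximal tubule transcripts. For Slc6a19 they were Slc5a12, a lactate carrier of the convoluted tubule, at a Pearson correlation of 0.89, then Gatm and Slc5a2, the glucose carrier of the same segments. For Slc7a7 they were Gm12962 at 0.92, Gatm and Slc16a14, and for Slc7a8 they were Gatm at 0.80, Slc16a10 and Spp2. For Slc7a9 they were Kcnj15 at 0.90, Ppara and Slc22a5. For Slc3a1 they were Upb1 at 0.93, Gk and Pdzk1, and for Slc1a1 they were Gk at 0.95, B3gat2 and Cubn. For Slc7a13 they were Atp11a at 0.90, Napsa and Kap, and for Slc7a12 they were Gm33472 at 0.76, Adgrb3 and Mep1b. These columns share libraries, depth and free RNA.

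Within the 20 proximal tubule-like columns alone the nearest genes were Chrna4 for Slc6a19 at 0.96, 4921539H07Rik for Slc7a7 at 0.96, Adra1a for Slc7a8 at 0.98 and Etv5 for Slc7a9 at 0.91. They were Gpm6a for Slc3a1 at 0.97, Aqp4 for Slc7a12 at 0.98, Atp11a for Slc7a13 at 0.95 and Ddi2 for Slc1a1 at 0.93. The Slc7a12 value rests mainly on cluster 7, since Slc7a12 was at most 0.0969 in the other columns. By Spearman correlation its nearest gene was Vps37a at 0.91. By that measure 4921539H07Rik, Gpm6a and Atp11a were not among the 3 nearest genes of Slc7a7, Slc3a1 and Slc7a13. Atp11a was 24.4 in WT and 24.4 in Sco2KO/KI, against 8.13 for db/db and 8.87 for the double mutant in cluster 7, and 12.9, 8.34, 3.43 and 1.34 in cluster 0, the lowest pair of libraries being the same as for Slc7a13.

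The promoters of 6 of the 8 genes had RefSeq entries (GRCm38.p6), in 11 windows of the 250 bases before a start. They were searched on both strands for the letters bound by the proximal tubule factors HNF1 (its full palindrome, or the shorter part GTTAAT) and HNF4 (CAAAGTCCA or CAAAGTTCA), and for the steroid hormone response element (its full palindrome, or the shorter part TGTTCT). Slc3a1 and Slc6a19 are printed because the first was near level in every comparison and held the HNF4 letters, and the second was lower in db/db. The Slc6a19 window lies before a RefSeq start inside the GENCODE span given above. Capitals mark CAAAGTCCA in Slc3a1, 39 bases before its start, and TGTTCT in Slc6a19, 226 bases before its start.
Slc3a1, chr17:85028097-85028346, plus strand: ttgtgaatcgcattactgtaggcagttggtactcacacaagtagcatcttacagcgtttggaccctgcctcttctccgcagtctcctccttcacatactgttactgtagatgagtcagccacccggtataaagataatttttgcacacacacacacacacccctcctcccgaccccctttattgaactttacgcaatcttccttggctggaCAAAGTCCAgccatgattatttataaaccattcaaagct
Slc6a19, chr13:73692637-73692886, minus strand: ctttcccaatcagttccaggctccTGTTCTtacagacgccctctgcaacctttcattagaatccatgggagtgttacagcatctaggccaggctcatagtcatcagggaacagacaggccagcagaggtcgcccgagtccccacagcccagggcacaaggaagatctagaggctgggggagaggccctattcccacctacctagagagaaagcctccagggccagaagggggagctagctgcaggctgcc
CAAAGTCCA was in 0.384% of 32851 windows of that length and TGTTCT in 16.1%. Neither the full HNF1 palindrome, which 0.0335% of all windows held, nor the full hormone element, which 0.00913% held, was in a window of the 6 genes, GTTAAT was in a window of Slc7a7 (6.43% of all windows), and TGTTCT was also in windows of Slc7a7. A match is a description of these letters only.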

How the data were processed

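Nuclei were sequenced on the 10x Chromium system and processed by the authors with Cell Ranger and Seurat on mm10, per the submitters' processing notes; no versions, filters or doublet handling were stated there. The deposited signal is the mean over a cluster's nuclei of UMIs scaled to 10000, read from the values, since all 83 columns total 10000. A set of 25 entries named by dates was left out, leaving 21456 genes, of which 21117 matched GENCODE vM21.

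The transporters and lists were chosen with earlier results of these data known. Nuclei per column were recovered, after seeing the data, as the largest number dividing at least 80% of the whole quotients of 10000 and the values (tolerance 1e-10, lowest share 88.6%). UMI totals per nucleus were approximated from quotients seen in at least 2 genes, which include some halved totals, so depths and UMI numbers are approximate and no interval was computed. Cluster names came from 17 marker lists: the leading list had to be at least 1 ahead on the log2 scale of lists from other cell types, and a cluster at 40% or more of the proximal marker level stayed unnamed. Both limits were set after seeing the data, and names may differ from those of the study.

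Ratios used log2(value + 0.1) and a floor of 0.5. Named genes are the 8 transporters, other transporters past 2-fold, Slc3a2 and Tmem27, and the 3 genes most like each transporter by Pearson correlation; 1 further partner gene of that rule is not reported here. Python 3.11.15, pandas 2.3.3 and numpy 2.4.6 were used, and the calculations were tested on simulated data. No source states whether counting used strand, so reads of Slc7a7 and Oxa1l, of Slc3a1 and Prepl, and of Slc1a1 and 4430402I18Rik may not be told apart.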

Additional observations from a re-analysis of the deposited data

Results flagged for a closer look

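The Sco2 ratio of Slc6a19 had opposite signs on the 2 backgrounds, with a difference of 1.92 on the log2 scale. It was below 0 in all 5 proximal tubule-like clusters on the lean background and above 0 in all 5 on the diabetic background. In cluster 1 the lean ratio was -0.08. In cluster 7 these signs rest on about 11.1 to 15.1 UMIs in each library except WT. Cluster 3 held about 13.5 UMIs for Sco2KO/KI and 15.7 for db/db. The convoluted markers Slc5a12 and Slc5a2 were also above their db/db level in all 5 clusters of the double mutant. Slc5a12 rose from 21.3 to 45.1 in cluster 1. From WT to Sco2KO/KI it went both ways, 39.5 to 46.4 there and 6.62 to 2.52 in cluster 0. The part of these markers was not tested. The Sco2 ratio of Slc7a12 also had opposite signs in all 5 clusters, with a difference of -2.11. In clusters 0, 1, 2 and 3 those signs rest on at most about 10.1 UMIs in a library, so the difference is carried by cluster 7, where it was -5.99. Neither difference was tested, since each genotype had 1 library.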

How the results depend on the processing

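Settings were changed in turn: the pseudocount, weights by nuclei, each proximal tubule-like cluster left out, mitochondrially encoded genes left out, the median of all genes taken as 0, the floor and the correlation measure. No called ratio of a transporter changed sign. Slc7a13 stayed past that limit under 10 of 10 alternatives against WT in db/db (-3.35 to -2.28) and in the double mutant (-5.41 to -2.99), and against Sco2KO/KI (-5.28 to -2.88). In the double mutant against db/db it was -0.71 with a pseudocount of 0.5. Slc6a19 in db/db against WT was under the limit in 5 of 10 alternatives (-0.70 with a pseudocount of 0.5), and in the double mutant against db/db in 1 of 10 (0.84 with that pseudocount). Slc7a8 against Sco2KO/KI was under it in 5 of 10 (lowest 0.77). The Slc7a12 calls were lost without cluster 7, with weights by nuclei and with a pseudocount of 0.5, and in db/db against WT ranged from 0.40 to 1.69. The difference of the Sco2 ratio stayed past the limit for Slc6a19 (1.25 to 2.28) and Slc7a12 (-4.40 to -1.14), and for Slc7a13 was -0.59 with a pseudocount of 0.5.

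The median over the 8 transporters in db/db against WT was 0.0327 without cluster 1, and their median difference of the Sco2 ratio was 0.1088 without cluster 3 and 0.0958 without cluster 7. With a pseudocount of 0.5, 0 other transporters were called higher in Sco2KO/KI against WT and in the double mutant against Sco2KO/KI, and 0 lower in db/db against WT and in the double mutant against db/db and against WT; with a floor of 1.0, 1 was lower in the double mutant against WT. The most like genes were 3 for each of the 8 transporters. By Spearman correlation, only 12 of them were shared over all columns and 10 over the proximal tubule-like columns, and Slc7a12 shared none in either set. With the proximal level weighted by nuclei, Slc7a8 was above every marker in 8 of 35 columns, and Slc7a13 was below every marker in 10 and above in 3. The cause of these shifts was not tested.

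Moves were judged against the spread over the 5 clusters, which are not replicates. No paired analysis was possible because each genotype had 1 library. The depth limits Slc7a12 in the double mutant, where cluster 7 held 30 nuclei.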
